A study of Mus musculus with 4 samples.

Results

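Expression of 10 genes of sweat gland and simple epithelium, of 33696 genes counted, was followed through the cells of mouse digits collected after digit tip amputation. The genes were selected by symbol and comprise the keratins Krt7, Krt8, Krt18 and Krt19, the water channel gene Aqp5, the forkhead transcription factor genes Foxa1 and Foxi1, and the ion transport genes Slc12a2, Scnn1a and Atp1b1. All 10 were found in each of 4 single-cell RNA-Seq libraries (10x Genomics), which count transcripts by unique molecular identifiers (UMIs). Levels are given as CPM, the usual count scale, with the UMIs of a gene and all UMIs first summed over a group of cells.

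The libraries formed 2 pairs, all from female C57BL/6 mice of 6 to 8 weeks. In the first, 1 library came from mice fed SAR131675, a VEGFR3 inhibitor, at 30 mg per kg of chow, and 1 from mice on matched control chow, with 8 days on the diet per the series design. The study's methods instead start this chow before amputation and keep it on throughout. In the second, 1 library came from limbs after lymph node removal (LNR) and 1 from limbs called sham controls in the series design and "No treatment" in the sample label. The study describes the sham limb as the contralateral one. Hind limb digits 2 to 4 of 10 mice were pooled for each library. By the study's methods these were cut off at the phalanx before the terminal one, so tissue proximal to the tip is included. The methods describe tip amputation for digits 2 and 4. The labels do not give the day after amputation at which the digits were collected, and the study's text and legends differ on it for the chow pair. With 1 library per condition, each with its own batch number, condition and batch cannot be told apart, no difference between libraries has a replicate check, and no p-value is given.

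Barcodes with 200 to 5500 genes, at most 30000 UMIs and at most 10% mitochondrial UMIs were kept, which left 29076 cells from SAR131675 chow, 24030 from control chow, 19827 from LNR and 20669 from sham. Median UMIs per kept cell were 11316, 10712, 5725 and 5851. The file headers name Cell Ranger 8.0.1 for the chow pair and Cell Ranger 6.1.2 for the LNR pair, so levels were compared within a pair and are only set side by side across pairs. Within the chow pair 210 barcodes were shared (0.874% of the smaller library), within the LNR pair 101 (0.509%), and across pairs at most 2.

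The eccrine sweat glands of the mouse lie in the paw pads and consist of a secretory coil and a duct. In the coil, the basolateral Na-K-2Cl cotransporter and the sodium pump drive chloride and water into the lumen, and in the duct the epithelial sodium channel takes sodium back. Luminal gland cells are simple epithelium and carry keratin 8 and 18 filaments, unlike the stratified epidermis, whose layers are built from keratins 5, 14, 1 and 10. Merkel cells, the touch receptor cells of the skin, also contain simple keratins.

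Promoter sequences of Foxa1 and Foxi1 are shown because gland cells with UMIs of either factor are set side by side in the results that follow. RefSeq entries (GRCm38.p6) were matched for 7 of the 10 genes. This build differs from GRCm39, the build in the submitters' processing notes, and no count was taken from it. Both windows are the 250 bases before the start site, on the minus strand at chr12:57546112-57546361 for Foxa1 and chr11:34208090-34208339 for Foxi1, with capitals marking a forkhead motif (TGTTTAC, searched on both strands).
Foxa1: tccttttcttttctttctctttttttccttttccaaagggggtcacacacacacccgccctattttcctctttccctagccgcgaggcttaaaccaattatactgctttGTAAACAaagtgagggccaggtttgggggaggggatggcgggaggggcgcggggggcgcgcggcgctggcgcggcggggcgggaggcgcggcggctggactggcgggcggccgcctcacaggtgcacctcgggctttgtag
Foxi1: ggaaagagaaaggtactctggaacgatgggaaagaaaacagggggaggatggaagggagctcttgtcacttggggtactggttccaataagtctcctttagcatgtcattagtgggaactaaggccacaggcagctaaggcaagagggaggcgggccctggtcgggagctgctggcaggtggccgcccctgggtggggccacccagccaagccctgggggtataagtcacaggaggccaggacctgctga
The Foxa1 window held 1 match on the opposite strand at position -141 from the start site, and the Foxi1 window held none, against 3.17% of 32851 promoter windows of the same length. The windows of Krt7, Krt8, Krt18, Aqp5 and Atp1b1 held none. A match is a description of letters and not a binding site.

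The cell class that carried most of these genes was a cluster of sweat gland-like cells, named from 11 markers that include none of the 10 genes, which were also kept out of the clustering. It held 445 cells of SAR131675 chow, 320 of control chow, 93 of LNR and 83 of sham. The summed level of the 11 markers was 3813, 4028, 3359 and 2745 CPM in these cells, against 269, 237, 211 and 213 CPM in whole libraries. Wfdc2 (1571, 1547, 1317 and 1192 CPM), Tfcp2l1 (528, 633, 538 and 482 CPM) and Best2 (110, 184, 158 and 115 CPM), a bestrophin channel gene of the secretory coil, were present in all 4, whereas Cftr had 0 UMIs in all 4. Another of the 11 markers, Cldn10, was lower in these cells than in all other cells of each library, at 0, 8.04, 1.33 and 1.86 CPM against 16.5, 10.1, 15.4 and 14.1 CPM. Median depth in the class was 1853, 2147.5, 4200 and 2714 UMIs, below that of the libraries as a whole. The epidermal keratins Krt1, Krt5, Krt10 and Krt14 summed to 7694, 4774, 2854 and 4672 CPM and hemoglobin genes to 1230, 699, 679 and 52.1 CPM in these cells. The mitochondrial share of their UMIs, a sign of RNA quality, was 1.30%, 0.648%, 3.58% and 2.51%. Beyond leaving out a subcluster led by epidermal keratins, described further on, the part of these in the results was not tested.

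Of the 10 genes, 8 were highest in sweat gland-like cells in both pairs, over 30 ranked classes in the chow pair and 28 in the LNR pair, with the UMIs of both libraries summed. The genes were chosen with earlier results of these data known, and no share of all genes was computed beside this count. With clusters replaced by a gate of at least 3 of the 11 gland markers, the count was 2 in the chow pair and 8 in the LNR pair. Most cells that passed the gate were of other classes, since 334 of 1773 were sweat gland-like in the chow pair and 95 of 509 in the LNR pair. By clusters, the exceptions were Krt7, whose pooled level was highest in follicle keratinocyte-like cells, and Scnn1a, which was highest in granular keratinocyte-like cells in every library. In single libraries, Krt7 was highest in the gland in control chow and LNR, at 1.27 and 1.04 times the next class. Sweat gland-like cells were 0.402% to 1.53% of the kept cells and yet held 62.4% to 73.1% of all Atp1b1 UMIs, 69.9% to 82.3% of Krt8 UMIs, 79.4% to 88.5% of Krt18 UMIs and 75.8% to 78.6% of Krt19 UMIs. They held 10.6% to 17.2% of Slc12a2 UMIs, 1.22% to 5.32% of Krt7 UMIs and 0.572% to 1.87% of Scnn1a UMIs, so most transcripts of these 3 genes were elsewhere.

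**Figure D1:**
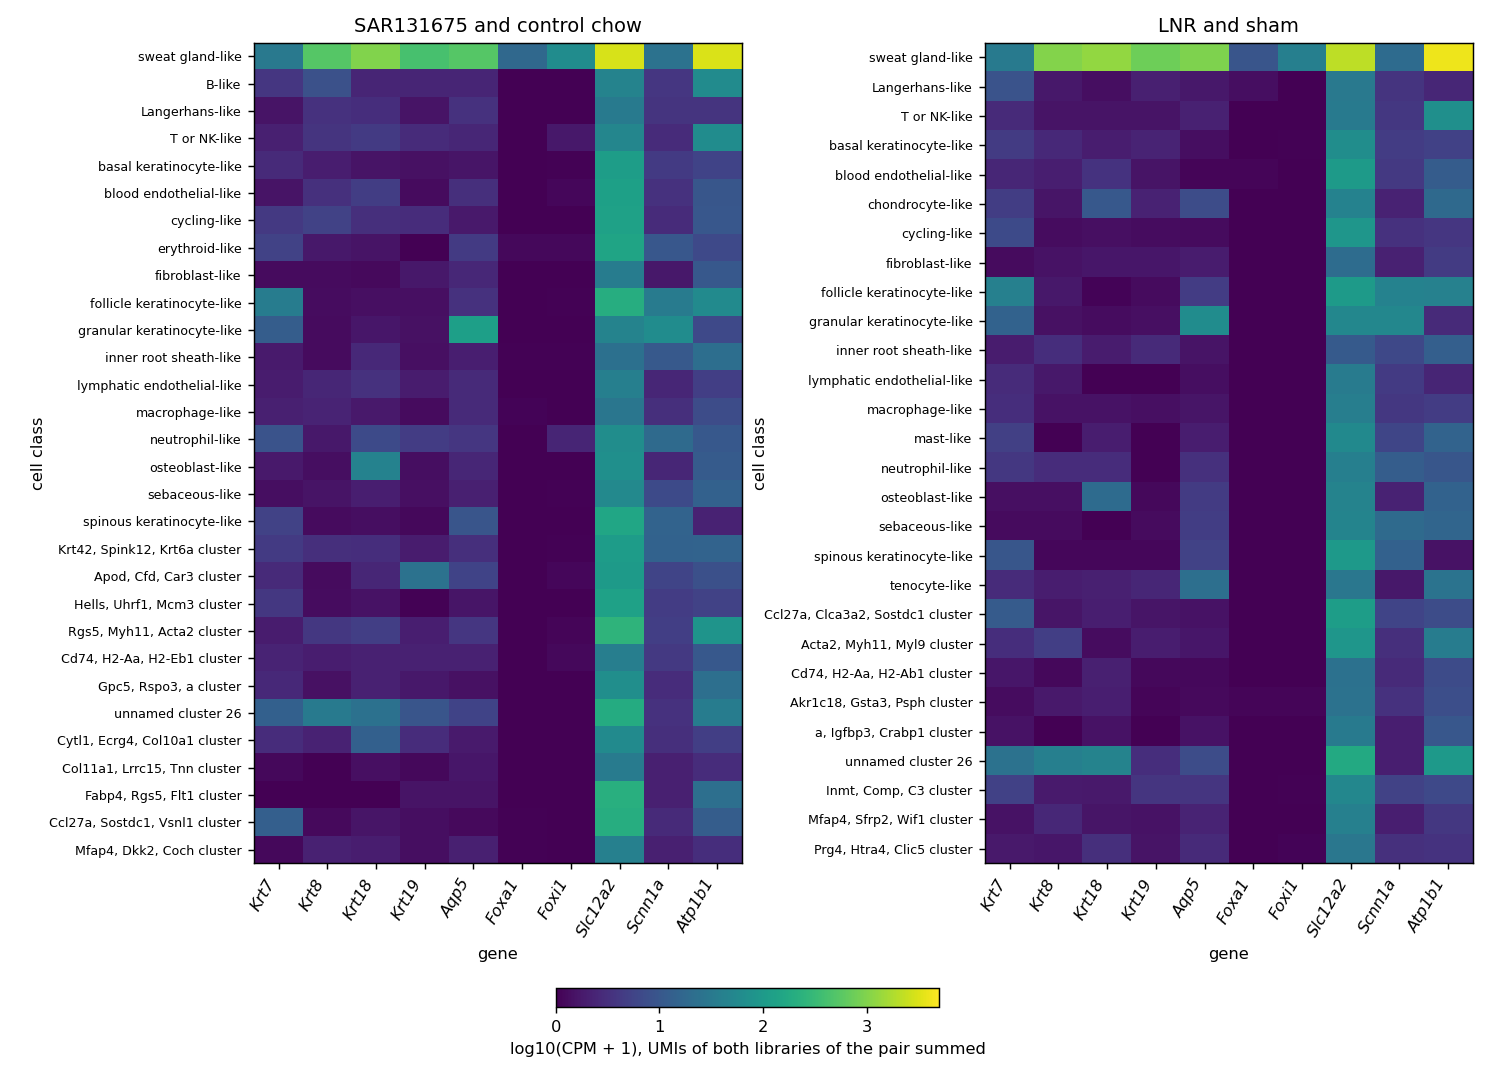
Level of the 10 genes (columns) in each ranked cell class (rows), as log10(CPM + 1) with the UMIs of both libraries of a pair summed, for the SAR131675 and control chow pair (left) and the LNR and sham pair (right). The sweat gland-like row at the top is brightest for 8 of the 10 genes in each pair, Foxa1 and Foxi1 are near 0 in all other rows, and Slc12a2 is present in every row.

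Among the simple keratins, the partners Krt8 and Krt18, which pair into one filament, were expressed together with Krt19 in sweat gland-like cells. Krt8 (ENSMUSG00000049382) was at 454 CPM in SAR131675 chow, 619 in control chow, 832 in LNR and 1291 in sham. Krt18 was at 861, 1225, 1136 and 1389 CPM, and Krt19 at 377, 480, 575 and 1021 CPM. In these cells, defined by clusters, all 3 genes were lower in the treated than in the control library of both pairs. With the marker gate the log2 ratios of LNR over sham were 0.04 for Krt8, 0.37 for Krt18 and -0.07 for Krt19. Most cells taken by this gate were of other classes. Krt7, a keratin of ducts and glands, was at 23.4, 40.2, 39.9 and 20.5 CPM, lower in the treated library of the chow pair and higher in that of the LNR pair, where the intervals overlapped. In the chow pair, 54 of its 129 UMIs came from a subcluster of 25 cells. With barcodes over the upper limits kept, both directions turned, with Krt7 at 41.2 against 32.1 CPM in the chow pair and at 58.9 against 89.6 CPM in the LNR pair.

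Most other classes had few transcripts of the simple keratins. Krt8 in the chow pair was 16.2 times higher in sweat gland-like cells than in the next ranked class, and Krt18 23.9 times and Krt19 17.9 times. In the LNR pair these ratios were 26.6, 27.8 and 275. Clusters too small to be ranked are left out of these ratios, and among them were cells with Krt8 at 129 and 110 CPM in the chow pair and with Krt19 at 115 and 138 CPM in the LNR pair, both described further on. A Krt8 UMI was found in 56.0% of sweat gland-like cells of SAR131675 chow, 61.6% of control chow, 78.5% of LNR and 75.9% of sham. In neutrophil-like cells, which should lack keratins, it was found in 0.526%, 0%, 0.787% and 0.356%, at median depths of 2607, 2519, 1607 and 1371 UMIs. The count of 0, in 113 neutrophil-like cells of control chow, allows a share of up to 2.65%. The gland shares were thus above those of neutrophil-like cells, which in the LNR pair were shallower than the gland cells. Free RNA itself was not estimated, and its part was not tested.

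Within the class, Krt18 and Krt19 were detected more often in cells with Krt8 than in cells without it, by a small margin for Krt18 in LNR. With each cell thinned to 1500 UMIs, 244, 182, 62 and 50 cells remained. Krt18 was detected in 76.6%, 85.1%, 76.3% and 76.7% of cells with a Krt8 UMI, against 43.8%, 59.1%, 70.8% and 55.0% of cells without one. Krt19 was detected in 47.7%, 54.3%, 63.2% and 76.7% of cells with Krt8 and in 18.2%, 25.0%, 29.2% and 25.0% of cells without it. Krt7 was detected in 3 to 9 of these cells in a library.

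Each keratin also had a site outside the gland. Krt7 was at 36.3 CPM in follicle keratinocyte-like cells of SAR131675 chow, 31.8 in control chow, 38.5 in LNR and 42.1 in sham, and these cells held 24.1% to 39.2% of its UMIs. In the same cells Krt8, Krt18 and Krt19 were each below 1 CPM, so Krt7 was there without the other simple keratins. Krt18 without Krt8 was found in osteoblast-like cells, at 49.8 and 29.3 CPM in the chow pair and 13.4 and 25.6 CPM in LNR and sham, where Krt8 was at most 1.02 CPM. Few cells carried it, with a Krt18 UMI in 2.93% to 8.26% of osteoblast-like cells.

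Krt19 without other simple keratins was found in an unnamed cluster of 65 cells in the LNR pair, led by Itih5, Sbspon and Cpxm2. Its level was 115 CPM (exact 95% Poisson interval 78.1 to 163) in LNR and 138 CPM (87.5 to 207) in sham, and 43.6% and 42.3% of the cells had a UMI. The cluster had 0 UMIs of Krt7 and Krt8 and 1 of Krt18. In the chow pair, Krt19 outside the gland was highest in a larger unnamed cluster led by Apod, Cfd and Car3, at 16.1 and 33.0 CPM, and Sbspon, Gpc6 and Itih5 were among its leading genes as well. With 39 and 26 cells, the LNR pair cluster was too small to be ranked, and it was singled out after its values were seen.

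Krt7, Krt8 and Krt18 were found together without Krt19 in cells with Merkel markers. These cells formed no class of their own, and were taken as those with a UMI of at least 2 of the 4 markers Krt20, Atoh1, Isl1 and Chga, a limit set after values were seen. The Merkel marker list used for naming also held Sox2, Piezo2, Cck and Syp, which were left out of this gate. The 36 such cells were 10 from SAR131675 chow, 11 from control chow, 10 from LNR and 5 from sham. Their Krt8 level was 621, 416, 601 and 544 CPM, their Krt18 level 476, 305, 507 and 589 CPM, and their Krt7 level 269, 157, 307 and 363 CPM. All 4 libraries thus gave more Krt7 in these cells than in any ranked class, and the Krt8 and Krt7 intervals of the 4 libraries overlapped.

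Krt19 was at 0 UMIs in all 36 cells, against 162 UMIs of Krt8 and 130 of Krt18. Over the 301747 UMIs of these cells, a count of 0 allows up to 9.94 CPM. Foxa1, Foxi1 and Scnn1a were also at 0 UMIs, and Aqp5 had 2 UMIs, both in control chow. Atp1b1 was at 590, 388, 227 and 635 CPM. The gland markers Wfdc2 and Best2 were at 0 UMIs, whereas Cck, a neuropeptide gene, was at 3022, 1785, 4258 and 8204 CPM. Of the other Merkel markers left out of the gate, Sox2 was at 580, 268, 200 and 408 CPM and Piezo2 at 631, 314, 160 and 90.6 CPM. Syp had 3 UMIs in each library of the chow pair and 0 in LNR and sham.

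**Figure D2:**
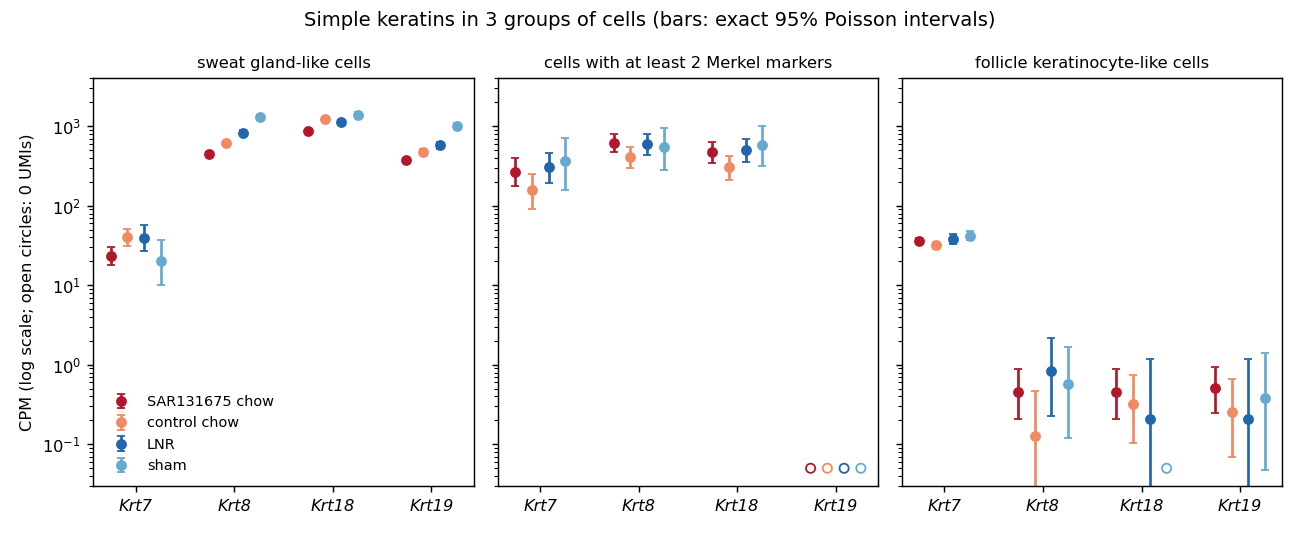
CPM (log scale) of Krt7, Krt8, Krt18 and Krt19 in sweat gland-like cells, in cells with at least 2 Merkel markers and in follicle keratinocyte-like cells, 1 point per library with exact 95% Poisson intervals and open circles for 0 UMIs. Gland cells carried Krt8, Krt18 and Krt19 at 377 CPM or more, Merkel-marker cells carried Krt7, Krt8 and Krt18 with Krt19 at 0 in all 4 libraries, and follicle cells carried Krt7.

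Krt8 was found with little Krt18 in contractile cells that also carried basal keratins. In the chow pair, a cluster of smooth muscle-like cells led by Cnn1, Acta2 and Mylk held 32 cells of SAR131675 chow and 28 of control chow, too few to be ranked, with Krt8 at 129 and 110 CPM and a Krt8 UMI in 65.6% and 53.6% of cells. Krt18 was at 12.6 and 8.17 CPM. When these cells and the vessel wall cells were clustered again, 57 of the cells formed a subcluster with Krt5 at 1238 CPM, Krt14 at 2290 CPM and Chrm3, a muscarinic receptor gene, at 1570 CPM. In the LNR pair the corresponding subcluster of 18 cells had Krt8 at 147 CPM, Krt5 at 1481 CPM and Krt14 at 2520 CPM, with Krt18 and Krt19 at 0 UMIs. Basal keratins with contractile genes are the known make-up of gland myoepithelium, but no class was named so here, and these subclusters were described after their values were seen.

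Aqp5 (ENSMUSG00000044217), the apical water channel of secretory cells, had 2 sites, the gland and the granular layer of the epidermis. In sweat gland-like cells it was at 542 CPM in SAR131675 chow, 512 in control chow, 1066 in LNR and 784 in sham. In granular keratinocyte-like cells it was at 114, 128, 63.9 and 58.5 CPM, and these cells held 40.5%, 55.6%, 30.6% and 37.2% of all Aqp5 UMIs. The gland level was therefore 4.01 to 4.75 times the granular level in the chow pair and 13.4 to 16.7 times in the LNR pair. A further site was the tenocyte-like class of the LNR pair, at 21.4 and 21.6 CPM, where 3.97% and 4.08% of cells had a UMI.

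Foxa1 and Foxi1, forkhead factors of gland and of acid-secreting epithelia respectively, were detected in few cells outside the gland. Foxi1 (ENSMUSG00000047861) was at 57.8, 68.9, 43.8 and 29.8 CPM in sweat gland-like cells of SAR131675 chow, control chow, LNR and sham, which held 146, 120, 33 and 16 of its UMIs against 23, 5, 3 and 4 in all other cells. Foxa1 was at 15.8, 18.4, 10.6 and 5.59 CPM, with 40, 32, 8 and 3 UMIs in the class against 1, 8, 4 and 1 elsewhere. A Foxi1 UMI was found in 17.5%, 19.7%, 19.4% and 15.7% of gland cells and in 0.0768%, 0.0211%, 0.0152% and 0.0194% of the remaining cells, at median depths of 11390, 10767, 5731 and 5857 UMIs in the latter. The LNR pair had too few Foxa1 UMIs to order its 2 libraries.

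Few cells had UMIs of both Foxa1 and Foxi1. Over the 4 libraries, 169 sweat gland-like cells had Foxi1 UMIs only, 41 had Foxa1 UMIs only and 3 had both, while 728 had neither. By library, the Foxi1-only and Foxa1-only cells numbered 78 and 21 in SAR131675 chow, 62 and 13 in control chow, 17 and 5 in LNR and 12 and 2 in sham, and the cells with both 0, 1, 1 and 1. The LNR pair thus had 2 cells with both beside 7 with Foxa1 only, too few to tell whether the genes were apart there. Most cells had no UMI of either gene, so a cell with UMIs of 1 gene may still express the other, and the split follows what was captured.

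Cells with Foxa1 had more of the cotransporter gene Slc12a2 than cells with Foxi1 in all 4 libraries. Slc12a2 was at 13822 against 2275 CPM in SAR131675 chow and at 14738 against 1842 CPM in control chow, a difference of 2.60 (exact conditional 95% interval 2.52 to 2.69) and 3.00 (2.89 to 3.11) on the log2 scale. In LNR it was at 4277 against 1816 CPM and in sham at 4229 against 2455 CPM, with log2 differences of 1.24 and 0.78. Best2 went the same way, at 771 against 10.9 CPM and 1341 against 12.4 CPM in the chow pair and at 450 against 108 CPM and 462 against 120 CPM in the LNR pair. In sham, 2 cells stand behind the Foxa1 value.

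Krt19 and Aqp5 were lower in Foxa1-only cells of the chow pair, and no such difference was detectable in the LNR pair. Krt19 was at 36.4 CPM in Foxa1-only cells against 627 in Foxi1-only cells of SAR131675 chow and at 222 against 844 CPM in control chow, and Aqp5 at 250 against 1110 CPM and 334 against 895 CPM. In LNR, Krt19 was at 570 against 508 CPM and Aqp5 at 1216 against 1346 CPM, with intervals of the log2 difference that held 0 for both genes. The same was true in sham. Atp6v1b1, a proton pump subunit gene of ionocytes, was also lower in Foxa1-only cells of the chow pair, at 263 against 1232 CPM and 303 against 1364 CPM. In the LNR pair it was at 525 against 484 CPM and 533 against 634 CPM, with intervals that held 0. The basal epidermal keratin Krt14 was lower in Foxa1-only cells of the chow pair too, at 72.7 against 370 CPM and 18.5 against 231 CPM. In the LNR pair it was higher in them, at 705 against 470 CPM and 1777 against 896 CPM. The part of epidermal RNA in these differences was not tested. Atp1b1 was at 5134 against 4326 CPM and 6044 against 4951 CPM in the chow pair. Krt8 was lower in Foxa1-only cells of all 4 libraries, with log2 differences of -1.13, -1.08, -0.46 and -1.20, and the interval in LNR (-0.97 to 0.02) held 0. Krt18 differed by -0.54, -0.79, 0.38 and -0.43, so in LNR it was higher in Foxa1-only cells (0.04 to 0.71), and the interval in sham (-0.94 to 0.06) held 0.

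**Figure D3:**
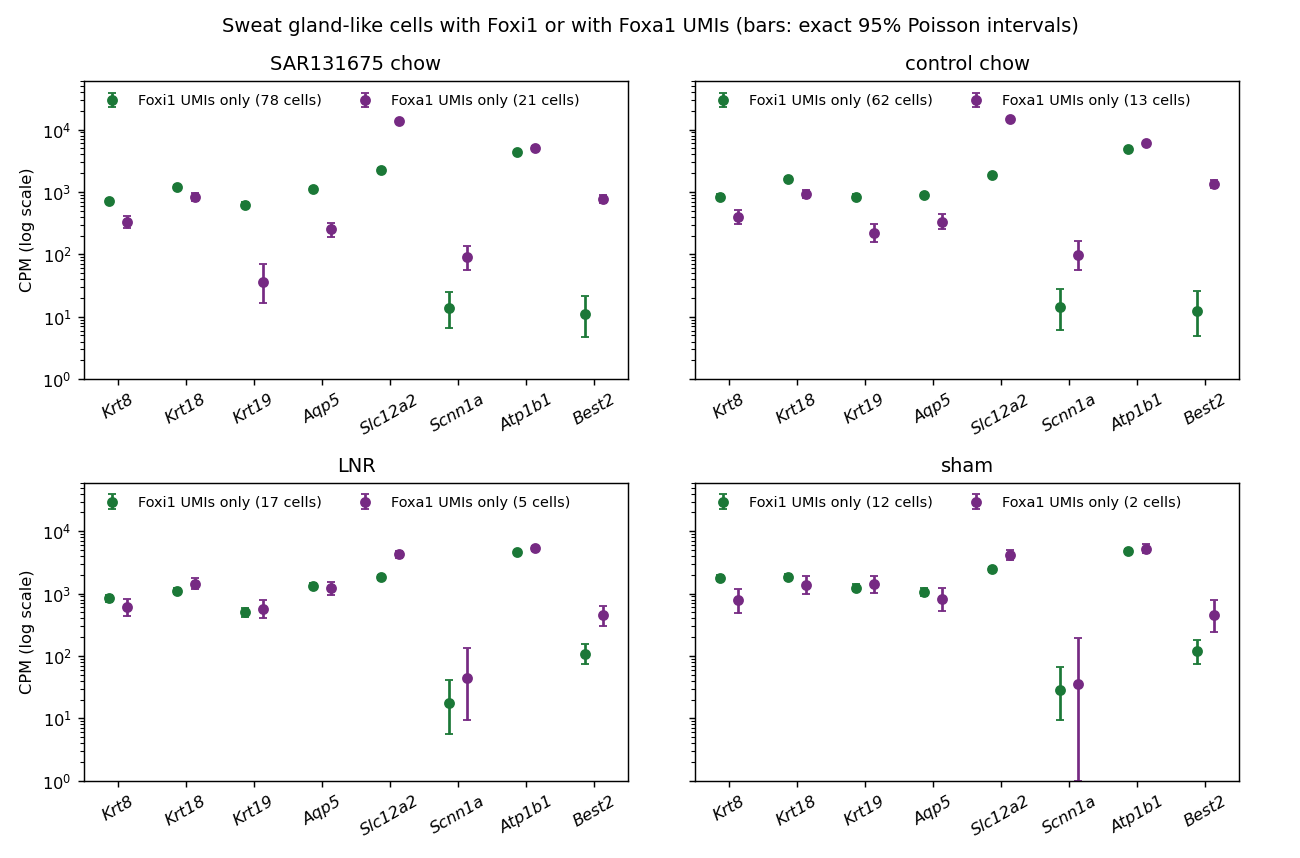
CPM (log scale) of 7 of the genes and of Best2 in sweat gland-like cells with Foxi1 UMIs only (green) and with Foxa1 UMIs only (purple), 1 panel per library, with exact 95% Poisson intervals (axis from 1 CPM). Slc12a2 and Best2 were higher in the Foxa1 cells of all 4 libraries, while Krt19 and Aqp5 were lower in them in the chow pair. For Krt19 and Aqp5 no difference was detectable in the LNR pair, on 5 Foxa1 cells in LNR and 2 in sham.

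Clustering the sweat gland-like cells again, without the 10 genes, separated cells with these levels in the chow pair. A subcluster of 62 cells led by Ppargc1a, Kcnma1 and Best2 had Foxa1 at 103 CPM in SAR131675 chow and 133 in control chow, Slc12a2 at 12998 and 13694 CPM and Krt19 at 41.6 and 133 CPM. A subcluster of 108 cells, led within the class by Thbs1, Chst9 and Kcnq1, had Foxi1 at 120 and 129 CPM, Foxa1 at 1.34 and 1.87 CPM, Slc12a2 at 2860 and 2246 CPM, Aqp5 at 1234 and 1041 CPM and Krt19 at 734 and 839 CPM. Foxa1, Slc12a2 and Krt19 each stood in the same order between these subclusters in both libraries. The first subcluster also had the higher sodium channel levels, with Scnn1a at 72.2 and 81.3 CPM, Scnn1b at 219 and 317 CPM and Scnn1g at 108 and 111 CPM, against 20.2 and 22.4, 25.5 and 37.3, and 5.38 and 9.33 CPM in the second.

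The other subclusters of the chow pair were a shallow one of 406 cells with a median of 912 UMIs and hemoglobin genes in the lead, 1 of 99 cells led by epidermal keratins, 1 of 65 cells led by Acta2, Tagln and Cnn1, and 1 of 25 cells led by Sprr1a, Krt79 and Col25a1. The last had the highest Krt7 level of the subclusters, at 143 CPM in SAR131675 chow and 264 in control chow. Its Krt14 level was 14554 and 12782 CPM, and its Krt8 level only 37.4 and 145 CPM. In the 99 cells led by epidermal keratins, Krt8 was at 90.9 and 146 CPM and Slc12a2 at 361 and 321 CPM. The LNR pair, with 176 gland cells, gave 3 subclusters and none with high Foxa1: its deepest, of 57 cells, had Foxi1 at 39.2, Foxa1 at 13.9 and Slc12a2 at 2975 CPM.

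Slc12a2, the gene of the basolateral Na-K-2Cl cotransporter, was highest in the gland and detected in every class, down to 10.1 CPM in inner root sheath-like cells of sham. In sweat gland-like cells it was at 3030 CPM in SAR131675 chow, 2906 in control chow, 2259 in LNR and 2058 in sham. The median class was at 67.2 CPM in the chow pair and 44.0 CPM in the LNR pair. The next highest class in the chow pair was an unnamed cluster of vessel wall cells led by Rgs5, Myh11 and Acta2, at 264 and 244 CPM, with overlapping intervals for the class that followed in control chow. When vessel wall and smooth muscle-like cells were clustered again, Slc12a2 was at 1544 CPM in a subcluster of 57 cells led by Rgs5, Abcc9 and Ednrb, in which hemoglobin genes were also high. In LNR the next highest class was an unnamed cluster with Ccer2 and Kcna1 among its leading genes (270 CPM). In sham it was a cluster led by Ccl27a, Clca3a2 and Sostdc1 (116 CPM). Follicle keratinocyte-like cells were at 191 and 211 CPM in the chow pair and 102 CPM in both libraries of the LNR pair.

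Scnn1a, the alpha subunit of the epithelial sodium channel, was highest in the epidermis among the ranked classes. It was at 59.3, 64.4, 48.1 and 51.9 CPM in granular keratinocyte-like cells of SAR131675 chow, control chow, LNR and sham, at 29.6, 38.3, 39.1 and 46.6 CPM in follicle keratinocyte-like cells, and at 22.6, 24.7, 21.3 and 14.9 CPM in sweat gland-like cells. The intervals of the granular and follicle classes overlapped in the LNR pair and not in the chow pair. A Scnn1a UMI was found in 8.09%, 8.75%, 15.1% and 8.43% of gland cells against 6.32%, 6.19%, 3.94% and 4.63% of neutrophil-like cells, so in the chow pair these shares were near each other. Gland cells differed among themselves, since Foxa1-only cells of the chow pair had Scnn1a at 88.9 and 98.9 CPM. These values rest on 22 and 16 UMIs, with intervals that held the granular levels. The gland subcluster led by Ppargc1a, which had high Foxa1 and so may share cells with the Foxa1-only set, was above the granular level in both libraries. The whole gland class held 57 and 43 Scnn1a UMIs in the chow pair, so the subcluster values also rest on few UMIs. For the partner subunits, Scnn1b and Scnn1g were highest in sweat gland-like cells in both pairs, at 50.6 and 18.5 CPM in the chow pair and 62.8 and 17.1 CPM in the LNR pair.

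Atp1b1, the beta 1 subunit of the sodium pump, had the highest ratio of gland to next class among the ion transport genes of the list. It was at 2849 CPM in SAR131675 chow, 3321 in control chow, 4245 in LNR and 3615 in sham, which was 37.2 times the next ranked class in the chow pair and 39.9 times in the LNR pair. That class was the vessel wall cluster of the chow pair (84.4 and 77.5 CPM) and, in the LNR pair, the unnamed cluster with Ccer2 and Kcna1 (163 CPM in LNR). In control chow alone, B-like cells were next, at 83.4 CPM. Atp1b1 was at 63.6, 59.1, 55.6 and 81.7 CPM in T or NK-like cells and at 49.0, 68.4, 41.0 and 42.7 CPM in follicle keratinocyte-like cells. In spinous keratinocyte-like cells it was at 1.37, 1.16, 0.380 and 0.618 CPM.

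The first comparison asked whether the genes differed between SAR131675 and control chow. Sweat gland-like cells made up 1.53% (exact binomial 95% interval 1.39 to 1.68) of kept cells in SAR131675 chow and 1.33% (1.19 to 1.48) in control chow, a log2 ratio of 0.20 whose interval of -0.01 to 0.41 held 0. Within these cells the simple keratins were lower in SAR131675 chow, with log2 ratios of -0.78 (-1.31 to -0.26) for Krt7, -0.45 (-0.57 to -0.33) for Krt8, -0.51 (-0.60 to -0.42) for Krt18 and -0.35 (-0.48 to -0.21) for Krt19. Atp1b1 was lower by a smaller amount, at -0.22 (-0.27 to -0.17). Slc12a2 stood at 0.06 (0.01 to 0.11), which turned to between -0.02 and -0.07 under 4 alternatives. Aqp5 stood at 0.08 (-0.04 to 0.20) and Scnn1a at -0.13 (-0.73 to 0.48), and the intervals of Foxa1 (-0.92 to 0.50) and Foxi1 (-0.61 to 0.11) held 0. The intervals cover counting error only and treat UMIs as independent.

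The median log2 ratio of the 10 genes in sweat gland-like cells was -0.24, against -0.01 over 6452 genes with at least 100 UMIs. Of the 9 genes with at least 100 UMIs, 2 had a log2 ratio of at least 0.5 in size, Krt7 and Krt18, or 22.2% against 8.38% of all genes. Both were lower, as were 3.63% of all genes, while 4.76% of all genes and none of the 9 were higher. The Krt7 value turned to 0.36 when barcodes over the upper limits were kept. Epidermal keratins (7694 against 4774 CPM) and the mitochondrial share (1.30% against 0.648%) were higher in the gland cells of SAR131675 chow. Without the subcluster that epidermal keratins led, which held 67 and 32 cells, the ratios of Krt8, Krt18 and Krt19 were -0.29, -0.35 and -0.20.

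In all kept cells of the chow pair, 1 of 9 genes passed 0.5 (11.1%, against 7.21% of 18944 genes, 3.63% higher and 3.58% lower). This was Scnn1a, at -0.54 (-0.61 to -0.47), followed by Aqp5 at -0.48 (-0.55 to -0.42). Both genes have an epidermal site, and granular keratinocyte-like cells numbered 740 of 29076 in SAR131675 chow and 1010 of 24030 in control chow. Within these granular cells Scnn1a was at 59.3 against 64.4 CPM and Aqp5 at 114 against 128 CPM. In a sum over all cells, fewer cells of a class and less RNA per cell cannot be told apart.

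**Figure D4:**
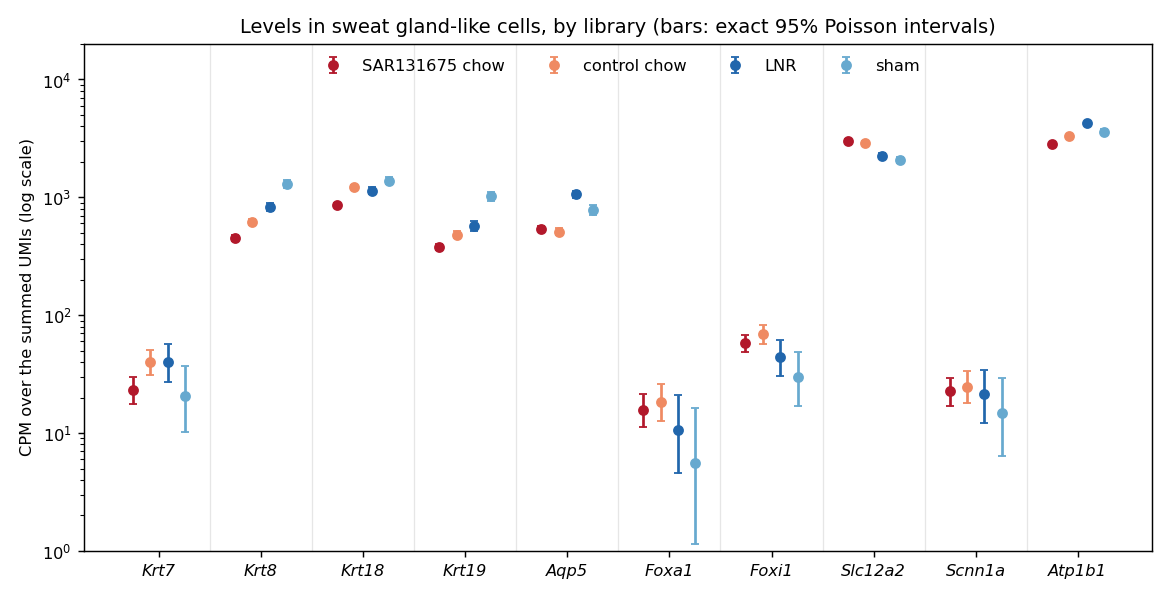
CPM (log scale) of the 10 genes in sweat gland-like cells, 1 point per library with exact 95% Poisson intervals. Krt8, Krt18 and Krt19 were lower in the treated library of each pair (454 against 619, 861 against 1225 and 377 against 480 CPM in the chow pair). With the marker gate, which took mostly cells of other classes, their log2 ratios for LNR were 0.04, 0.37 and -0.07. The intervals of Foxa1, Krt7 and Scnn1a were wide.

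The second comparison set LNR against sham. Sweat gland-like cells made up 0.469% (0.379 to 0.574) and 0.402% (0.320 to 0.498) of kept cells, a log2 ratio of 0.22 (-0.22 to 0.67). Krt8 was lower in LNR by a log2 ratio of -0.63 (-0.79 to -0.48), Krt19 of -0.83 (-1.01 to -0.64) and Krt18 of -0.29 (-0.43 to -0.15), while Aqp5 was higher at 0.44 (0.27 to 0.62) and Atp1b1 at 0.23 (0.15 to 0.31). Within the deepest gland subcluster, of 57 cells, Aqp5 was at 1316 against 1216 CPM and Atp1b1 at 5408 against 5529 CPM, with overlapping intervals. Intervals also overlapped in the shallow subcluster of 74 cells, at 732 against 428 CPM and 1262 against 1183 CPM. In the subcluster of 45 cells led by keratinocyte markers both were higher in LNR, at 559 against 213 CPM and 2152 against 1298 CPM. Slc12a2 stood at 0.13 (0.02 to 0.24), which turned to -0.03 without the subcluster led by keratinocyte markers, and the intervals of Krt7, Foxa1, Foxi1 and Scnn1a held 0. The ratios rest on 93 and 83 cells, and deep cells weigh most in them. For Krt8, 495 of 626 UMIs in LNR and 563 of 693 in sham came from the 35 and 22 cells of the deepest subcluster. Hemoglobin genes (679 against 52.1 CPM), epidermal keratins (2854 against 4672 CPM) and the mitochondrial share (3.58% against 2.51%) also differed between the gland cells of LNR and sham. Beyond leaving out the subcluster led by keratinocyte markers, their part in the ratios was not tested.

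Of the 6 genes with at least 100 UMIs in gland cells of the LNR pair, 2 passed 0.5, Krt8 and Krt19, or 33.3% against 10.5% of 1748 genes. Both were lower, as were 3.03% of all genes, while 7.49% of all genes and none of the 6 were higher. With the upper limits on genes and UMIs lifted, Krt8 was at 704 against 905 CPM and Krt19 at 506 against 661 CPM, so neither passed 0.5. The median over the 10 genes was 0.34, against 0.06 over all genes, and 4 of the 10 had fewer than 100 UMIs. The medians of the 10 lower and of the 10 upper limits were -0.39 and 0.47, which is not an interval of the median. In cells taken by a gate of at least 3 of the 11 gland markers in place of clusters, Krt8 stood at 0.04, Krt18 at 0.37 and Krt19 at -0.07, in 509 cells of which 95 were sweat gland-like. In all kept cells, 1 of 8 genes passed 0.5 (12.5%, against 3.41% of 16085 genes, 2.28% higher and 1.13% lower). This was Atp1b1, at 0.57 (0.50 to 0.63). It had 3195 and 1941 UMIs in gland cells of LNR and sham, and 1176 and 1172 in all other cells. The gland class held 752666 of 142866794 kept UMIs in LNR and 536991 of 150624773 in sham. In such a sum, more RNA from the gland class and more Atp1b1 per cell cannot be told apart. Foxi1 stood at 0.92 (0.10 to 1.79) on 36 and 20 UMIs.

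The lower keratin levels were also seen within cells that had Foxi1 UMIs only. Krt8 was at 718 CPM in SAR131675 chow against 837 in control chow and at 845 in LNR against 1793 in sham. Krt18 was at 1199 against 1608 CPM and 1106 against 1861 CPM, and Krt19 at 627 against 844 CPM and 508 against 1245 CPM. With 78, 62, 17 and 12 cells behind them, these values have no replicate check, and the Krt8 intervals of the chow pair overlapped. Most gland cells, 346, 244, 70 and 68, had UMIs of neither factor. In them Krt8 was at 349 against 534 CPM in the chow pair and Krt18 at 705 against 1047 CPM, while the Krt19 intervals overlapped (313 against 322 CPM). In the LNR pair Krt19 was at 634 against 881 CPM in them, while intervals overlapped for Krt8 (835 against 1016 CPM) and Krt18 (1109 against 1156 CPM). Other subsets of the LNR pair were mixed. The subcluster of 57 cells had lower levels in LNR for Krt8 (1001 against 1906 CPM), Krt18 (1387 against 1923 CPM) and Krt19 (659 against 1341 CPM). In the other subclusters Krt8 was at 1060 against 1101 CPM and 408 against 395 CPM, Krt18 at 1439 against 1591 CPM and 513 against 519 CPM, and Krt19 at 1262 against 1774 CPM and 261 against 337 CPM, with overlapping intervals. In Foxa1-only cells Krt8 was at 615 against 782 CPM, Krt18 at 1441 against 1386 CPM and Krt19 at 570 against 1422 CPM.

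**Figure D5:**
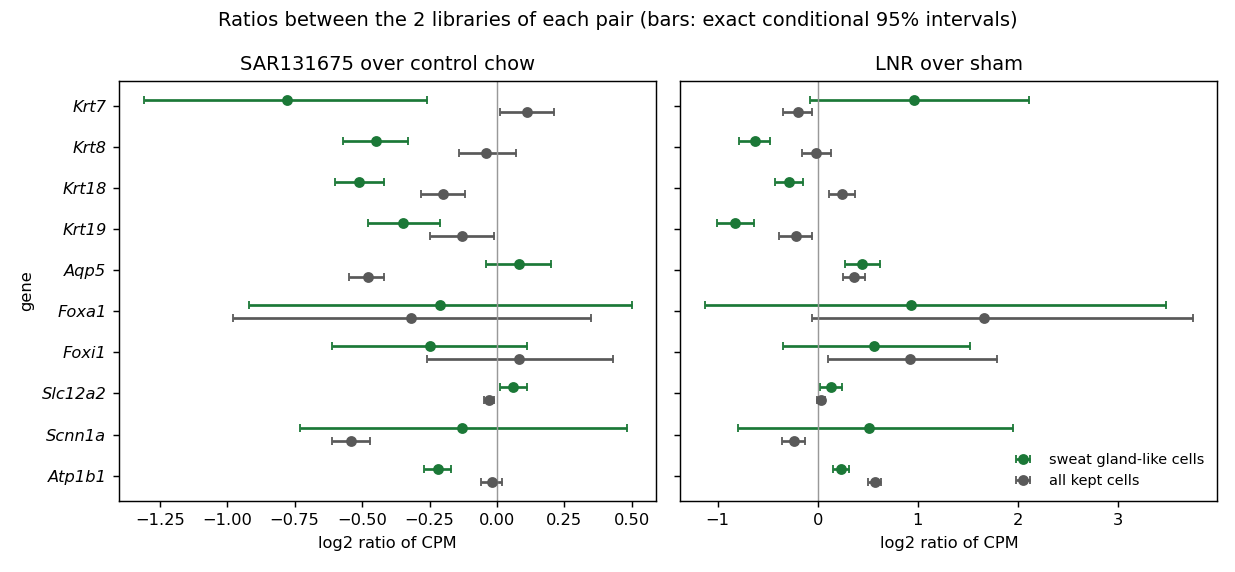
Log2 ratio of CPM of each gene between the 2 libraries of a pair, SAR131675 over control chow (left) and LNR over sham (right), in sweat gland-like cells (green) and in all kept cells (gray), with exact conditional 95% intervals. Krt8, Krt18 and Krt19 lie below 0 in gland cells of both pairs. With the marker gate (not plotted), which took mostly cells of other classes, they were at 0.04, 0.37 and -0.07 for LNR. In all kept cells Scnn1a (-0.54) and Aqp5 (-0.48) lie lowest in the chow pair and Atp1b1 (0.57) is high in the LNR pair. Ratios over all kept cells also follow how much of each library a class makes up.

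Other genes of the same processes were followed as lists, some of whose genes, such as Chrm3, Best2, Kcnn4, Cldn3, Sox9 and Elf5, were also markers that named the class. For the counts of list genes highest in the gland, no share of all genes was computed. Of 19 genes of sweat secretion and ion transport, 11 were highest in sweat gland-like cells in each pair, among them Fxyd3 (2800 CPM in the chow pair and 4077 CPM in the LNR pair), a regulator of the sodium pump, and the calcium release channel gene Itpr2 (1055 and 591 CPM). The muscarinic receptor gene Chrm3 was at 603 CPM in the chow pair and 29.5 CPM in the LNR pair. The pairs differ in Cell Ranger version, depth and treatment, and the source of this difference was not tested. In the chow pair 1 of 16 genes with at least 100 UMIs was at least 0.5 higher (Aqp3, 0.76) and 1 at least 0.5 lower (Best2, -0.73), against 4.76% and 3.63% of all genes tested in gland cells. In the LNR pair 3 of 10 were higher and none lower, with a median of 0.41, against 7.49% and 3.03% of all genes and their median of 0.06.

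Of 15 genes of simple epithelium and its junctions, 4 were highest in sweat gland-like cells in the chow pair and 6 in the LNR pair. Epcam, an adhesion gene, was at 938 CPM in the chow pair, where Langerhans-like cells had more, and at 1080 CPM in the LNR pair. Ehf, an epithelial transcription factor gene (716 and 423 CPM), and the claudin genes Cldn3 (276 and 358 CPM) and Cldn7 (275 and 414 CPM) were so in both. In the chow pair 1 of 12 was at least 0.5 higher and 1 lower, against 4.76% and 3.63% of all genes, and in the LNR pair none of 8 passed in either direction, against 10.5% of all genes. Of 10 gland development genes, En1 (193 and 164 CPM), a homeobox gene of ventral limb skin, and Elf5 (11.7 and 15.5 CPM) were highest in the gland in both pairs, whereas Sox9 (460 and 448 CPM) was higher in other classes and Barx2 (289 and 203 CPM) was highest in the gland in the LNR pair. Of 5 development genes tested in the chow pair, 1 was higher and none lower, against 4.76% and 3.63% of all genes, and in the LNR pair 2 of 3 were higher, against 7.49%.

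Of 6 ionocyte genes, the proton pump subunit genes Atp6v1b1 (776 and 478 CPM) and Atp6v0a4 (804 and 457 CPM) were highest in the gland in both pairs, and neither passed 0.5 in either pair, as 8.38% of all genes did in the chow pair and 10.5% in the LNR pair. Ascl3, Atp6v1g3 and Cftr had 0 UMIs in gland cells of both pairs. None of 6 myoepithelial genes was highest in sweat gland-like cells. Krt14 (2187 and 1497 CPM) and Krt5 (765 and 770 CPM), also basal epidermal keratins, led the list. Of 3 of these genes with at least 100 UMIs, none was at least 0.5 higher and 1 lower in the chow pair, against 4.76% and 3.63% of all genes, and 1 was higher and 1 lower in the LNR pair, against 7.49% and 3.03%. These were Acta2, at 29.3 against 76.4 CPM in the chow pair and 230 against 7.45 CPM in the LNR pair, and Krt5, at 506 CPM in LNR against 1140 CPM in sham. Krt14 was at 1283 against 1797 CPM in the LNR pair.

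The genes whose levels most resembled each member were sought over 116 class and library sums, as Pearson r of log2(CPM + 1). Krt8, Krt18 and Krt19 were near each other and near Cldn7 and Smim22, with Krt8 and Cldn7 at 0.888, Krt8 and Krt18 at 0.839 and Krt19 and Clic6 at 0.896. Candidates needed 100 or more UMIs in both pairs, which Foxa1 and Foxi1 do not reach in the LNR pair. Foxi1 and Foxa1 had an r of 0.96 with each other, and among the candidates they had the same nearest genes, Lrrc26 (0.943 and 0.925), Clic6 and Gm5886. Aqp5 was nearest to Car6 (0.823), Scnn1a to Bicdl2 (0.856), Krt7 to Pdzk1ip1 (0.724), Slc12a2 to Pip4k2c (0.765) and Atp1b1 to Best2 (0.743). These values are descriptions, since classes of one library share its depth and its free RNA. How far the high values rest on the gland class was not tested.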

How the data were processed

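Raw UMI counts, as deposited by the authors for each gene in each barcode, cover 4 libraries of mouse digits collected after tip amputation. They were made with Cell Ranger 8.0.1 for the chow pair and 6.1.2 for the LNR pair per the file headers. The labels list 6.1.2 for all samples and GRCm39 as the genome, and whether intronic reads were counted is not given in the sources used here. Library totals were 585284877 (SAR131675), 448276501 (control chow), 168507188 (LNR) and 175998346 (sham) UMIs. Barcodes were kept at 200 to 5500 genes, at most 30000 UMIs and at most 10% mitochondrial UMIs. The study's methods give these limits for the LNR experiment, and they were used here for all 4 libraries.

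Each pair was clustered apart from the other. After scaling each cell to a sum of 10000 and taking logs, 30 principal components of 2000 variable genes without the 10 genes were computed, and the graph of each cell's 20 nearest cells was clustered by the Leiden method at resolution 0.7. A cluster was named "X-like" at a marker score of at least 1.0, with the next class below 0.75 times that score. At least 3 markers had to be in at least 5% of cells each, and the leading genes were also checked for markers. This scoring rule was chosen after clusters were seen. Doublets were left in. Classes of at least 50 cells in each library were ranked. UMIs were summed per class and library. Intervals at 95% are exact Poisson for CPM, Clopper-Pearson for shares and exact conditional for log2 ratios, and they cover counting error only. Genes with at least 100 UMIs in a pair form the background, and a log2 ratio of at least 0.5 in size counts as past the limit. Genes other than the 10 were named as the genes of each list with the highest CPM and the 3 most similar genes, and others named in the text, such as Aqp3, Scnn1b, Scnn1g, Elf5 and Cck, were picked after their values were seen. Some genes that met these rules are not reported here. Members and lists were chosen with earlier results of these data known. With 1 library per condition, no p-value was computed. Alternatives changed the limits on cells, resolution, naming of gland cells, depth, and barcodes with markers of other classes. The scripts were tested on simulated data. Python 3.11.15, numpy 2.4.6, scipy 1.17.1, pandas 2.3.3, igraph 0.11.9 and matplotlib 3.10.9 were used.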

Additional observations from a re-analysis of the deposited data

Results flagged for a closer look

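Barcodes over the upper limits on genes and UMIs lie outside all comparisons, and they held a large part of the UMIs of the 10 genes. The share was 51.0% (exact binomial 95% interval 50.8 to 51.3) in SAR131675 chow, 46.9% (46.6 to 47.2) in control chow, 19.9% (19.5 to 20.4) in LNR and 23.8% (23.3 to 24.3) in sham. Of all UMIs, 41.0%, 39.8%, 13.6% and 12.9% lay in such barcodes. With the upper limits lifted, Krt8 in sweat gland-like cells was at 598 against 798 CPM in the chow pair and 704 against 905 CPM in the LNR pair. Whether these barcodes are large cells or doublets was not tested.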

How the results depend on the processing

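Of 57 alternative values for the summary results, 51 stayed within the limits set for them. For a share ratio these were its interval, and for a count of genes a set fold. For a median they were the medians of the single genes' lower and upper limits, which are not an interval of the median. In the chow pair, the median log2 ratio of the 10 genes over all kept cells (-0.08) was 0.05 without barcodes that held markers of another class and 0.07 with no upper limits, and with a gate of at least 3 gland markers 2 in place of 8 genes were highest in the cells taken, most of them of other classes. In the LNR pair, the median in gland cells (0.34) was 0.66 with the marker gate, and that over all kept cells (0.13) was -0.06 without barcodes of other classes and -0.04 with cells thinned. Among single genes, 8 alternative values changed sign where the reported interval excluded 0, 39 others moved beyond their interval and 137 did not. The 8 were Krt7 in the chow pair with no upper limits (0.36), Slc12a2 in the chow pair without barcodes of other classes (-0.02), thinned (-0.07), with no upper limits (-0.06) and with at most 5% mitochondrial UMIs (-0.06), Krt8 (0.04) and Krt18 (0.37) in the LNR pair with the marker gate, and Slc12a2 in the LNR pair without the subcluster led by keratinocyte markers (-0.03), an alternative chosen after seeing the data. Sign changes of genes whose reported interval held 0 are not among the 8, such as Krt7 (-0.61, from 0.96) and Scnn1a (-0.33, from 0.51) in the LNR pair and Foxa1 (0.13, from -0.21) in the chow pair, each with no upper limits. The causes were not tested. In the LNR pair, clustering with the 10 genes allowed gave no sweat gland-like cluster and so no value, and Krt7 gave none with cells thinned. No paired analysis was possible because each group has 1 library. Depth limits Foxa1, with 3 to 40 UMIs in gland cells of a library.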
